A study of Mus musculus with 8 samples.

Results

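This comparison set dendritic cells of the mouse thymus that carried Sirpa against those that did not, both sorted as mature, on 4 of the 8 arrays of the study. Sirpa is an inhibitory surface receptor that binds Cd47 and is used to divide conventional dendritic cells into subsets. The 4 arrays were chosen by their titles, 2 labelled Sirpa_Pos_Mature (replicates 1 and 6) and 2 labelled Sirpa_Neg_Mature (replicates 2 and 8). Between them 24148 genes were compared, with the spread of each gene estimated from all 8 arrays. The other 4 arrays held immature cells, 2 Sirpa-positive (replicates 3 and 5) and 2 Sirpa-negative (replicates 4 and 7), from the same study of CD40 in thymic dendritic cell maturation and regulatory T cell development. All groups were sorted thymic dendritic cells with no treatment named. The labels give no other sort marker and no strain, age or number of pooled animals. Whether arrays with the same label came from different mice or different sorts is not stated, so each p-value below reflects the spread among these samples, which may be technical.

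Conventional dendritic cells come in 2 main types that depend on different transcription factors. Type 1 cells need Irf8, Batf3 and Id2, carry Xcr1 and Clec9a, and are known for taking up dying cells and presenting their antigens on MHC class I. Type 2 cells depend more on Irf4 and carry Sirpa, and in the thymus they include cells that enter from the blood. A mature dendritic cell of the thymus raises Ccr7, CD40 and other costimulatory molecules and helps to delete self-reactive thymocytes or to turn them into regulatory T cells. In sorted bulk samples such as these, fewer cells of a type and less RNA per cell cannot be told apart.

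The 75th percentile of the processed signal was 289 and 147 intensity units on the Sirpa-positive mature arrays and 199 and 253 on the Sirpa-negative mature arrays, within a range of 147 to 313 over all 8. The software marked 52.9% to 65.5% of the spots as well above background and no spot (0) as saturated. The slide had 2 rows, and each held 1 array of every group. Values below are log2 signals relative to the array's own 75th percentile. Arrays of the same group correlated across probes at 0.977 to 0.986, and Sirpa-positive with Sirpa-negative mature arrays at 0.948 to 0.956.

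The dendritic cell identity genes were present on all 4 arrays. Flt3 (the receptor of the growth factor of dendritic cells), Zbtb46 (a factor of conventional dendritic cells) and Itgax were well above background on each of them, as were Ccr7, Fscn1, Cd83 and Cd40, which mark mature cells. The sorted receptor followed its label. Sirpa measured 4.27 and 3.95 in Sirpa-positive cells and -0.52 and -0.90 in Sirpa-negative cells, a difference of 4.82 ± 0.22 (SE, n = 2 arrays each) or 28.3-fold (adjusted p = 8.67e-05). Since Sirpa was the sort marker, its difference checks the labels and is no result.

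Of the 24148 genes, 1322 passed an adjusted p under 0.05 in limma, which is 5.47% of those tested. Expression was higher in Sirpa-positive cells for 815 (3.38%) and lower for 507 (2.10%). At least 2-fold differences made up 782 of the higher and 480 of the lower genes (3.24% and 1.99% of those tested), and differences of at least 8-fold made up 235 and 60. Of the higher genes, 206 were not well above background on either Sirpa-negative array, and of the lower genes, 71 were not on either Sirpa-positive array. The median difference over all genes was -0.07, the 5th and 95th percentiles were -0.98 and 1.06, and the smallest called difference was 0.82. In all 1322 called genes the groups did not overlap, and neither did they in 40.8% of all genes tested. Groups that do not overlap must have the same sign within each slide row, so the sign in the rows adds nothing for these 1322. With the row as a block 1008 passed. The count depended on single arrays: 861 passed without Sirpa-positive replicate 1, 636 without Sirpa-positive replicate 6, 886 without Sirpa-negative replicate 2 and 724 without Sirpa-negative replicate 8. With dim probes kept in the test, 579 passed.

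**Figure D1:**
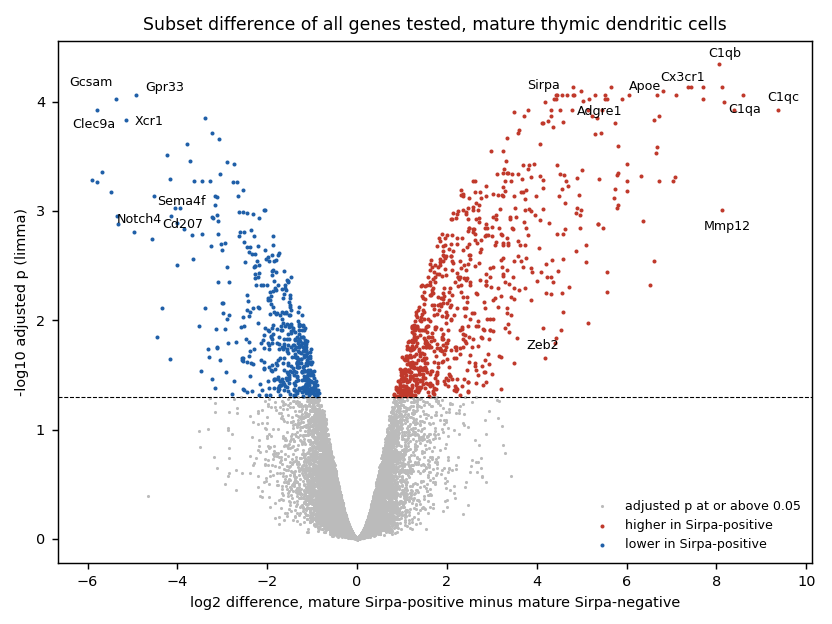
Log2 difference between mature Sirpa-positive and mature Sirpa-negative cells (x axis, positive minus negative) against -log10 of limma's adjusted p (y axis) for the 24148 genes tested. Red points are the 815 genes higher and blue points the 507 genes lower in Sirpa-positive cells, above the dashed line at an adjusted p of 0.05. The right arm reaches further, to 9.37 for C1qc, than the left arm, to -5.90 for Clec1a. Neither gene was well above background in its dimmer group, so both ends rest on signals not told apart from background.

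The 12 genes with the largest positive differences were C1qc, C1qa, Gpnmb, Cx3cr1, Mmp12, C1qb, Clec4a3, Olfml3, Ms4a7, Trem2, Apoe and Pla2g7. The 3 chains of C1q, the complement protein that recognises antibody complexes and dying cells, were among them. C1qa measured 7.18 and 7.12 in Sirpa-positive cells and -1.71 and -1.16 in Sirpa-negative cells, a difference of 8.59 ± 0.38 (adjusted p = 8.67e-05). C1qb measured 7.28 and 7.37 in Sirpa-positive and -0.70 and -0.77 in Sirpa-negative cells and differed by 8.06 ± 0.22 (adjusted p = 4.57e-05). C1qc measured 5.32 and 4.38 in Sirpa-positive and -4.12 and -4.92 in Sirpa-negative cells, where neither array read it well above background, and was at least 574-fold higher (adjusted p = 0.000119). All 3 chains were far above the 75th percentile on both Sirpa-positive arrays and below it on both Sirpa-negative arrays.

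The C1q genes lie in a row on chromosome 4, and the windows of 250 bases before the starts of C1qb (chr4:136886201-136886450, minus strand) and C1qc (chr4:136892915-136893164, minus strand) are shown because these chains head the comparison together. Sequences are from RefSeq on GRCm38.p6, read 5′ to 3′ along the gene, and capitals mark GAGGAA, a purine-rich core bound by factors of the Ets family, searched on both strands.
C1qb: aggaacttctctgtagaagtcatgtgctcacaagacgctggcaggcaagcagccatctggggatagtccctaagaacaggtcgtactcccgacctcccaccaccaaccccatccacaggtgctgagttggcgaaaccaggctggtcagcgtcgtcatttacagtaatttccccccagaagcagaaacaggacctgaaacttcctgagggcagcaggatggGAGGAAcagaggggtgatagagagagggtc
C1qc: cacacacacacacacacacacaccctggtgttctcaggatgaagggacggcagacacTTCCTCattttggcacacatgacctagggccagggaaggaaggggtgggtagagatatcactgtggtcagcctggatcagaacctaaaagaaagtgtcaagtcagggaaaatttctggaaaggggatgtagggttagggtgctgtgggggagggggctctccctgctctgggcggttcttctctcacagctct
The match in C1qb began 30 bases before the start, and that in C1qc lay on the opposite strand 193 bases before it. GAGGAA occurred in 23.3% of all 32851 windows of this length. Among the macrophage and monocyte markers described below, it occurred in 8 of the 10 higher genes with a window and in 3 of the 7 other tested genes with one. A gene was counted if any of its windows held the motif, whereas the 23.3% is a share of windows, so the figures are not alike. A match describes letters and shows no binding.

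The other leaders included genes of phagocytes, lipid handling and migration. Apoe, a lipid carrier protein, measured 8.01 and 8.25 in Sirpa-positive cells and 0.89 and 1.19 in Sirpa-negative cells and was 136-fold higher (adjusted p = 8.69e-05). Cx3cr1, the receptor for fractalkine, measured 4.12 and 3.94 in Sirpa-positive and -3.98 and -4.21 in Sirpa-negative cells, at least 280-fold higher (adjusted p = 7.29e-05). Gpnmb, a glycoprotein of lysosome-rich phagocytes, was at least 140-fold higher (3.06 and 2.56 in Sirpa-positive and -5.31 and -5.40 in Sirpa-negative cells), and the lipid-sensing receptor Trem2 was at least 59.8-fold higher (1.61 and 1.56 in Sirpa-positive and -6.11 and -5.44 in Sirpa-negative cells). Neither Sirpa-negative array showed these last 3 genes well above background, nor Clec4a3 (at least 71.8-fold) or Pla2g7 (at least 84.3-fold), which encodes an enzyme that inactivates platelet-activating factor. Mmp12, the macrophage elastase, was above background on 1 of the 2 Sirpa-negative arrays; it measured 5.38 and 4.84 in Sirpa-positive and -1.73 and -4.30 in Sirpa-negative cells and was 279-fold higher (adjusted p = 0.000976). The membrane protein Ms4a7 (174-fold) was also above background on 1 of these 2 arrays. The secreted glycoprotein Olfml3 was 207-fold higher on the brighter of its 2 probes, and the gene was above background on both Sirpa-negative arrays. For Mmp12 the 2 Sirpa-negative arrays lay far apart.

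Among the 12 genes with the largest negative differences were the defining receptors of type 1 dendritic cells. Clec9a, a lectin that recognises the exposed actin of dead cells, measured -3.86 and -3.40 in Sirpa-positive cells, where it was above background on 1 of 2 arrays, and 1.93 and 2.38 in Sirpa-negative cells, a difference of -5.78 ± 0.31 (adjusted p = 0.000119). Xcr1, the receptor for the chemokine Xcl1, measured -4.55 and -3.99 in Sirpa-positive and 0.88 and 0.87 in Sirpa-negative cells and was at least 27.8-fold lower (adjusted p = 0.000146). The orphan receptor Gpr141b measured -3.04 and -2.96 in Sirpa-positive and 2.34 and 2.30 in Sirpa-negative cells and was 39.9-fold lower (adjusted p = 0.00131). Gpr33, an orphan relative of the chemoattractant receptors, measured -3.38 and -3.17 in Sirpa-positive and 1.66 and 1.65 in Sirpa-negative cells and was 30.5-fold lower (adjusted p = 8.67e-05). These 4 receptor genes were above the 75th percentile on both Sirpa-negative arrays and below it on both Sirpa-positive arrays.

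Notch4, a Notch receptor best known from endothelium, measured -3.45 and -1.91 in Sirpa-positive cells and 1.96 and 2.60 in Sirpa-negative cells and was 31.1-fold lower (adjusted p = 0.00156). The other 7 leaders were not well above background on either Sirpa-positive array. They were the lectin Clec1a (at least 12.8-fold lower), the amino acid transport partner Cltrn (at least 14.8-fold), the peptidase Naalad2 (at least 11.4-fold), the signalling protein Gcsam (at least 10.6-fold), the adaptor Clnk (at least 8.31-fold), the lactate receptor Hcar1 (at least 4.87-fold) and the scaffold protein Ush1c (at least 5.36-fold), with adjusted p between 9.49e-05 and 0.00179. Clec1a, for example, measured -6.73 and -5.58 in Sirpa-positive cells and -0.28 and -0.23 in Sirpa-negative cells. The size of such differences depended on the processing. Over the alternatives it ran from -6.48 to -2.23 for Clec1a, from -5.21 to -1.35 for Hcar1 and from -5.04 to -1.06 for Ush1c. Their rank among the leaders therefore rests on signals not well above background. All 24 leading genes passed the test in the same direction in immature cells too, where the test used the same estimate of each gene's spread.

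**Figure D2:**
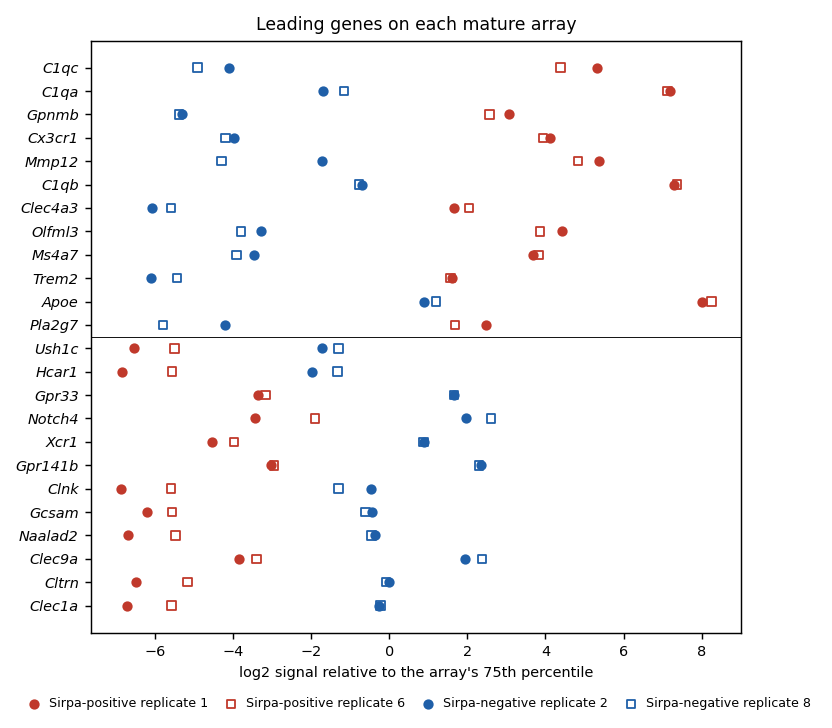
Log2 signal relative to the array's 75th percentile (x axis) of the 12 leading genes higher (above the line) and the 12 lower (below it) in mature Sirpa-positive cells, 1 symbol per array. Red symbols are Sirpa-positive and blue symbols Sirpa-negative arrays. In each gene the 2 colours lie apart, which the rule that chose these genes required, and for Mmp12 the 2 blue symbols also lie far from each other.

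Type 1 markers were lower in Sirpa-positive cells for 18 of 24 genes tested and higher for none (0), with a median difference of -1.70. With 1 array left out, 12 or 13 of the 24 were lower, 12 of them without Sirpa-positive replicate 1, Sirpa-negative replicate 2 or Sirpa-negative replicate 8. Cd36, a scavenger receptor above background on 1 of the 2 Sirpa-positive arrays, measured -3.22 and -3.42 in Sirpa-positive and -0.26 and 0.09 in Sirpa-negative cells and differed by -3.24 ± 0.30 (adjusted p = 0.00113). Tlr11, the receptor for Toxoplasma profilin, measured -1.47 and -0.92 in Sirpa-positive and 0.94 and 1.11 in Sirpa-negative cells, a difference of -2.23 ± 0.25 (adjusted p = 0.00287). Gcsam, Xcr1 and Clec9a were already described. Cd8a, whose product marks type 1 cells of lymphoid organs, measured 2.77 and 2.26 in Sirpa-positive and 5.34 and 4.62 in Sirpa-negative cells and differed by -2.46 ± 0.41 (adjusted p = 0.0149), with an adjusted p of 0.0792 without Sirpa-negative replicate 2 and 0.0984 without Sirpa-positive replicate 6. Tlr3, the double-stranded RNA sensor typical of type 1 cells, measured -4.33 and -5.08 in Sirpa-positive and -3.64 and -3.13 in Sirpa-negative cells and did not pass (-1.32 ± 0.35, adjusted p = 0.0865). It was not well above background on either Sirpa-positive array.

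Of the type 2 markers, which include Sirpa, 14 of 27 tested were higher in Sirpa-positive cells and none (0) was lower, with a median difference of 1.29. The count was 12 without Sirpa-positive replicate 1, 13 without Sirpa-negative replicate 2, 11 without Sirpa-negative replicate 8 and 9 without Sirpa-positive replicate 6. Ccr2, the chemokine receptor that brings cells in from the blood, was above background on 1 of the 2 Sirpa-negative arrays. It measured 1.18 and 1.07 in Sirpa-positive cells and -3.54 and -3.81 in Sirpa-negative cells and was 27.8-fold higher (adjusted p = 8.67e-05). Clec4a1, a lectin receptor, measured 2.25 and 1.80 in Sirpa-positive and -4.86 and -4.71 in Sirpa-negative cells and was at least 81-fold higher (adjusted p = 8.06e-05). Cd209a, a relative of the human receptor DC-SIGN, was at least 9.74-fold higher on 1 of its 2 probes (-1.09 and -0.97 in Sirpa-positive and -5.31 and -5.81 in Sirpa-negative cells, adjusted p = 0.000119). The second Cd209a probe, tested singly in limma, differed by only 1.85 (adjusted p = 0.0206). Several type 2 markers did not pass. Clec10a measured 0.17 and 1.70 in Sirpa-positive and -1.09 and -0.49 in Sirpa-negative cells and did not pass (1.73 ± 0.50, adjusted p = 0.113), and Klf4, a factor needed by some type 2 cells, differed by 0.30 ± 0.23 (adjusted p = 0.639). For Itgam, the integrin Cd11b, the 3 probes disagreed: the brightest differed by 0.17 ± 0.26 (adjusted p = 0.861), and the others, tested probe by probe, by 0.67 (adjusted p = 0.188) and 1.17 (adjusted p = 0.0267).

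**Figure D3:**
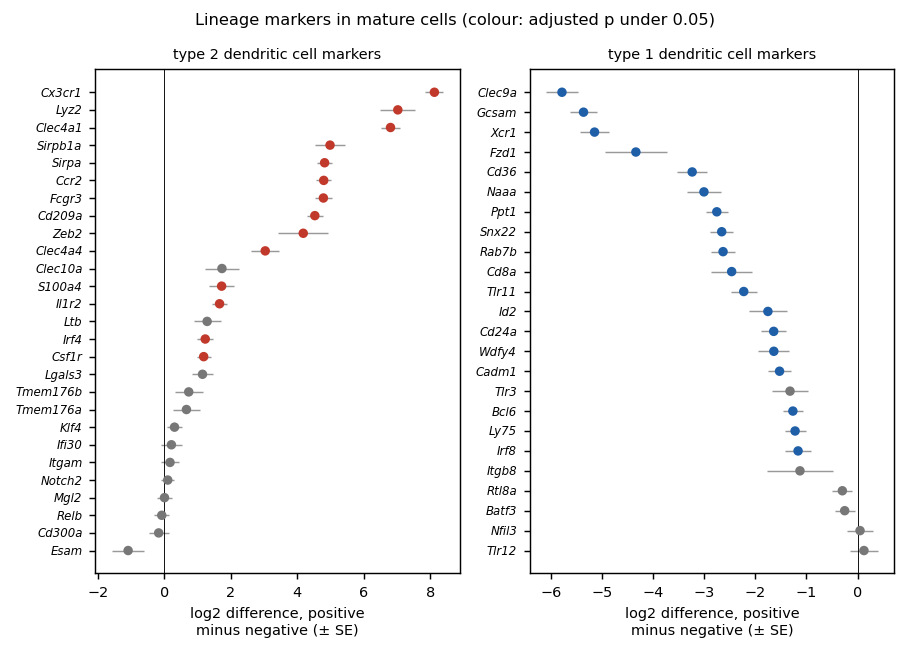
Log2 difference between mature Sirpa-positive and Sirpa-negative cells with its SE (n = 2 arrays each) for the type 2 markers (left) and the type 1 markers (right). Coloured points passed an adjusted p of 0.05, red where higher and blue where lower in Sirpa-positive cells, and grey points did not. All coloured points of the left panel lie right of 0 and all those of the right panel left of 0.

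Lineage transcription factors split by direction, with 6 of 33 higher and 5 lower and a median of 0.05. Cebpa, a factor of myeloid cells, measured 3.98 and 4.58 in Sirpa-positive cells and 0.29 and 0.64 in Sirpa-negative cells and was 14.1-fold higher (adjusted p = 0.00038). Cebpb, its relative, measured 1.24 and 1.13 in Sirpa-positive and -1.39 and -1.96 in Sirpa-negative cells and was 7.27-fold higher (adjusted p = 0.00133). Mycl, which supports type 1 cell numbers, measured -2.01 and -2.07 in Sirpa-positive and 0.31 and 0.52 in Sirpa-negative cells and was 5.49-fold lower (adjusted p = 0.00105). These 3 passed with any 1 mature array left out.

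The 2 factors that name the subsets differed less. Irf4 measured 1.95 and 1.97 in Sirpa-positive cells and 0.96 and 0.49 in Sirpa-negative cells, a difference of 1.23 ± 0.25 (adjusted p = 0.0334), and its adjusted p was 0.111 without Sirpa-positive replicate 1, 0.148 without Sirpa-negative replicate 8, 0.139 without Sirpa-positive replicate 6 and 0.0652 with the slide row as a block. Irf8 measured 5.35 and 5.97 in Sirpa-positive and 6.79 and 6.86 in Sirpa-negative cells, a difference of -1.16 ± 0.25 (adjusted p = 0.0399), and its adjusted p was 0.126 without Sirpa-positive replicate 1, 0.125 without Sirpa-negative replicate 2, 0.153 without Sirpa-negative replicate 8 and 0.0699 with the slide row as a block. The groups did not overlap for either gene, as for all 1322 called genes. Batf3 measured 3.25 and 3.43 in Sirpa-positive and 3.69 and 3.49 in Sirpa-negative cells and did not pass (-0.25 ± 0.20, adjusted p = 0.659). For all 33 factors the counts higher were 2 without Sirpa-positive replicate 1, 6 without Sirpa-negative replicate 2, 3 without Sirpa-negative replicate 8 and 2 without Sirpa-positive replicate 6, and the counts lower 1 without Sirpa-positive replicate 1, 1 without Sirpa-negative replicate 2, 3 without Sirpa-negative replicate 8 and 4 without Sirpa-positive replicate 6. In total 6 of the 33 passed with the slide row as a block.

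Genes of dendritic cell identity and of the mature state were read next. Of 30 core and maturation genes, 1 was higher and 2 were lower, which is 10% of the list against 5.47% of all genes tested. Without Sirpa-positive replicate 1 or Sirpa-negative replicate 8 only 1 of the 30 passed, and without Sirpa-positive replicate 6 or Sirpa-negative replicate 2 none (0) did, and 1 passed with the slide row as a block. Cd40, the receptor that names the study, measured 5.30 and 5.07 in Sirpa-positive cells and 5.97 and 5.11 in Sirpa-negative cells and did not pass (-0.36 ± 0.31, adjusted p = 0.707). Ccr7, which guides mature cells to the medulla, measured 5.21 and 5.22 in Sirpa-positive and 6.20 and 5.62 in Sirpa-negative cells (-0.70 ± 0.60, adjusted p = 0.694). Both genes were above the 75th percentile on all 4 arrays, and the groups overlapped for Cd40 but not for Ccr7. The actin bundler Fscn1 differed by -0.44 ± 0.43 (adjusted p = 0.743) and Cd83 by -0.39 ± 0.27 (adjusted p = 0.599).

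Of the costimulatory ligands of CD28, Cd86 passed and Cd80 did not. Cd86 measured 1.60 and 2.01 in Sirpa-positive and 2.96 and 2.84 in Sirpa-negative cells and differed by -1.10 ± 0.22 (adjusted p = 0.03), with an adjusted p of 0.117 without Sirpa-positive replicate 1, 0.122 without Sirpa-negative replicate 2, 0.102 without Sirpa-negative replicate 8, 0.0506 without Sirpa-positive replicate 6 and 0.0645 with the slide row as a block. Cd80 measured 2.48 and 2.64 in Sirpa-positive and 3.63 and 3.20 in Sirpa-negative cells and did not pass (-0.85 ± 0.23, adjusted p = 0.093). Among 25 genes of the B7 family and related molecules, 2 were higher and 2 lower, 16% of the list. For the NF-kB and CD40 signalling genes at the end of this paragraph the share was 6.67%, against 5.47% of all genes tested. The MHC class II binder Lag3 was one of the higher ones and measured 1.07 and 0.98 in Sirpa-positive and -1.25 and -1.40 in Sirpa-negative cells, 5.11-fold higher (adjusted p = 0.000698). The B7-family total was 2 without Sirpa-positive replicate 1, 1 without Sirpa-positive replicate 6 and 1 without Sirpa-negative replicate 2. Of 30 NF-kB and CD40 signalling genes, 2 were lower, and 0 passed with any 1 mature array left out or with the slide row as a block.

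Markers of other cells were read beside these groups. Of 25 macrophage and monocyte markers, 18 were higher in Sirpa-positive cells and 1 was lower, with a median difference of 2.25. Of the list's genes, 23 were well above background on both Sirpa-positive arrays and 18 on both Sirpa-negative arrays, and the list holds 5 of the 12 leading genes that were higher, the 3 C1q chains, Trem2 and Apoe. Their summed linear signal, relative to the 75th percentile, was 856 and 955 on the Sirpa-positive arrays and 188 and 245 on the Sirpa-negative arrays. The lower gene, Mpeg1, is part of these sums. It measured 5.29 and 5.19 in Sirpa-positive and 6.46 and 6.87 in Sirpa-negative cells, a difference of -1.43 ± 0.22 (adjusted p = 0.0122 in limma). At this level Mpeg1 makes up a large part of the Sirpa-negative sums. Adgre1, the macrophage antigen F4/80, measured 4.24 and 4.33 in Sirpa-positive and -1.01 and -1.0 in Sirpa-negative cells and was 39.1-fold higher (adjusted p = 8.67e-05), and it was well above background on all 4 arrays. A second Adgre1 probe, tested singly in limma, differed by 3.75 (adjusted p = 0.00462). The macrophage and monocyte list moved with the complement, Fc receptor, scavenger, lysosomal and lipid genes described below, and its part in those results was not tested. These lists are not independent, since the 3 C1q chains are also in the complement list and Apoe in the cholesterol list. Some macrophage and monocyte markers, such as Csf1r and Lyz2, also serve as type 2 markers.

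Thymocyte transcripts were read in both groups. Of 26 thymocyte and T cell markers, 1 was higher and 4 were lower, with summed signals of 81.4 and 87.7 on the Sirpa-positive arrays and 119 and 98.5 on the Sirpa-negative arrays. The lower ones include Cd8a, described above, and 2 further thymocyte genes. Cd8b1 differed by -1.95 ± 0.31 (adjusted p = 0.0125 in limma) and Rag2 by -1.51 ± 0.31 (adjusted p = 0.0376). Rag2 was above background on 1 of the 2 Sirpa-positive arrays. Cd4 was the higher one and measured 4.16 and 4.22 in Sirpa-positive and 1.21 and 1.42 in Sirpa-negative cells, 7.35-fold higher (adjusted p = 0.000593). Cd3e, the defining T cell chain, differed by -0.34 ± 0.20 and did not pass (adjusted p = 0.502). The counts of lower T cell genes were 1 without Sirpa-positive replicate 1, 1 without Sirpa-negative replicate 2, 2 without Sirpa-negative replicate 8 and 0 without Sirpa-positive replicate 6. Of 17 plasmacytoid markers, 5 were higher, while Siglech, which defines that cell type, measured 6.13 and 6.58 in Sirpa-positive and 6.42 and 6.55 in Sirpa-negative cells (-0.13 ± 0.24, adjusted p = 0.883). The plasmacytoid count was 3 without Sirpa-positive replicate 1, 5 without Sirpa-negative replicate 2, 2 without Sirpa-negative replicate 8 and 2 without Sirpa-positive replicate 6, and 3 with the slide row as a block. No thymic epithelial marker of 13 passed in limma (0 calls). Cpa3, which defines mast cells, was above background on none of the 4 arrays. The part of these cells in the subset difference was not tested.

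Among receptors for microbial products, more genes were higher than lower in Sirpa-positive cells. Of 17 genes for Toll-like receptors and their partners, 6 were higher and 1 was lower, with a median of 1.21. Tlr1, which pairs with Tlr2 on bacterial lipopeptides, measured 2.18 and 1.73 in Sirpa-positive and -0.95 and -1.85 in Sirpa-negative cells and was 10.2-fold higher (adjusted p = 0.00207). Tlr2 measured 1.29 and 1.01 in Sirpa-positive and -0.69 and -0.69 in Sirpa-negative cells and was 3.58-fold higher (adjusted p = 0.00314). Tlr5, the flagellin receptor, was at least 2.71-fold higher and not well above background on either Sirpa-negative array (adjusted p = 0.000697, and 0.0568 after normexp and quantile normalization). Tlr11, described above, was the only member of the list that was lower. Tlr7 had 2 kept probes. The dimmer one, tested singly in limma, differed by 4.95 (adjusted p = 0.000164). It read -6.23 and -5.68 in Sirpa-negative cells, below the lowest signal well above background on those arrays. The values that follow are those of the brighter probe. Tlr7, the single-stranded RNA sensor, measured -0.16 and -0.95 in Sirpa-positive and -2.22 and -3.01 in Sirpa-negative cells and differed by 2.06 ± 0.41 (adjusted p = 0.0322), with an adjusted p of 0.137 without Sirpa-positive replicate 1, 0.156 without Sirpa-negative replicate 8, 0.0592 without Sirpa-positive replicate 6 and 0.0537 with the slide row as a block.

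Downstream of these receptors, 8 of 31 adaptors and cytosolic sensors were higher and none (0) was lower. Ticam2, the Tlr4 adaptor, was at least 8.11-fold higher (-1.29 and -1.30 in Sirpa-positive and -4.15 and -4.76 in Sirpa-negative cells, adjusted p = 0.00143). Naip2, a sensor of bacterial secretion systems, measured 1.32 and 1.43 in Sirpa-positive and -0.10 and -0.13 in Sirpa-negative cells and was 2.81-fold higher (adjusted p = 0.00553). The count was 4 without Sirpa-positive replicate 1, 4 without Sirpa-negative replicate 2, 4 without Sirpa-negative replicate 8 and 3 without Sirpa-positive replicate 6, and 5 with the slide row as a block.

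C-type lectins divided the subsets in both directions, with 11 of 25 higher and 5 lower. Those higher in Sirpa-positive cells included Clec4a3, Clec4a1, Cd209a and Cd209d. Cd209d measured 1.55 and 1.95 in Sirpa-positive and -0.41 and -0.17 in Sirpa-negative cells and was 4.12-fold higher (adjusted p = 0.00222). Those lower included Clec1a, Clec9a and Cd207, the Langerhans cell lectin langerin. Cd207 measured -1.28 and -0.96 in Sirpa-positive and 2.74 and 2.91 in Sirpa-negative cells and was 15.4-fold lower (adjusted p = 0.000948). Several Clec4 and Cd209 genes are close relatives, and whether their probes take up each other's RNA was not tested.

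Fc receptors, which bind the constant part of antibodies, were higher for 5 of 11 genes and lower for 1. Fcgr3 measured 3.98 and 3.92 in Sirpa-positive cells and -0.83 and -0.84 in Sirpa-negative cells and was 27.6-fold higher (adjusted p = 0.000119). The inhibitory Fcgr2b measured 3.29 and 2.74 in Sirpa-positive and -1.31 and -1.70 in Sirpa-negative cells, 22.9-fold higher (adjusted p = 0.000461). Fcer1g, the chain through which several of them signal, measured 6.76 and 6.94 in Sirpa-positive and 4.78 and 4.32 in Sirpa-negative cells, 4.93-fold higher (adjusted p = 0.0033). Activating and inhibitory receptors were both among the higher genes. Fcrla, an intracellular Fc receptor-like protein known from B cells, was at least 3.56-fold lower in Sirpa-positive cells (-6.70 and -5.52 in Sirpa-positive and -1.65 and -2.57 in Sirpa-negative cells, adjusted p = 0.00315).

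Complement genes, the 3 C1q chains included, were higher for 9 of 18 and lower for 1, and 9 were higher with any 1 mature array left out. Cfb, the factor B of the alternative pathway, measured 5.09 and 5.41 in Sirpa-positive cells and -0.29 and -0.25 in Sirpa-negative cells and was 45.9-fold higher (adjusted p = 8.67e-05). The lower gene was Hc, which encodes complement C5. It measured -2.86 and -2.59 in Sirpa-positive and 0.50 and -0.08 in Sirpa-negative cells and differed by -2.93 ± 0.46 (adjusted p = 0.0121), with an adjusted p of 0.0695 without Sirpa-positive replicate 1, 0.0728 without Sirpa-negative replicate 2 and 0.063 without Sirpa-positive replicate 6.

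Of 25 scavenger and dead-cell receptors, 8 were higher and 2 lower, and these counts were 8 and 2 with any 1 mature array left out. The scavenger receptor Msr1 was at least 46-fold higher (1.38 and 1.03 in Sirpa-positive and -4.76 and -5.48 in Sirpa-negative cells, adjusted p = 0.000478). Stab1, which takes up modified lipoproteins and dying cells, was above background on 1 of the 2 Sirpa-negative arrays and measured 1.57 and 1.31 in Sirpa-positive and -2.97 and -3.45 in Sirpa-negative cells and was 25.1-fold higher (adjusted p = 0.000529). The integrin chain Itgb5, part of a receptor for apoptotic cells, measured 1.56 and 1.42 in Sirpa-positive and -2.19 and -2.41 in Sirpa-negative cells and was 13.9-fold higher (adjusted p = 0.000415). The 2 lower members were Clec9a and Cd36. Receptors for dying cells stood on both sides of the comparison.

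Inhibitory and paired myeloid receptors were higher for 14 of 34 genes and lower for 1, and Sirpa itself is 1 of the 14. Cd33, a sialic acid-binding inhibitory lectin, was at least 24-fold higher (0.12 and 0.42 in Sirpa-positive and -6.05 and -5.52 in Sirpa-negative cells, adjusted p = 8.67e-05). Lair1, the collagen receptor, measured 1.97 and 1.71 in Sirpa-positive and -2.62 and -2.20 in Sirpa-negative cells and was 19-fold higher (adjusted p = 0.000151). In the Ms4a family of membrane proteins, 5 of 10 genes were higher and none (0) lower. Ms4a6d measured 2.28 and 2.45 in Sirpa-positive and -2.96 and -2.35 in Sirpa-negative cells and was 32.5-fold higher (adjusted p = 9.91e-05), and Ms4a6c, its close relative, was 13-fold higher (adjusted p = 0.000378).

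Among chemokine ligands, 8 of 22 were higher and 1 was lower, and 7 were higher with any 1 mature array left out. Ccl6 measured 3.1 and 3.04 in Sirpa-positive cells and -0.41 and -0.45 in Sirpa-negative cells and was 11.3-fold higher (adjusted p = 0.000124). Ccl9 measured 4.76 and 4.78 in Sirpa-positive and 0.48 and -0.33 in Sirpa-negative cells, 25.9-fold higher (adjusted p = 0.000593), and Ccl24, a ligand of Ccr3, measured 1.44 and 1.38 in Sirpa-positive and -3.39 and -3.72 in Sirpa-negative cells, 31.2-fold higher (adjusted p = 0.00142). Ccl24 was above background on 1 of the 2 Sirpa-negative arrays. The lower ligand was Cxcl9, which attracts Cxcr3-bearing T cells. Cxcl9 measured 2.76 and 2.37 in Sirpa-positive and 4.50 and 4.43 in Sirpa-negative cells and differed by -1.89 ± 0.31 (adjusted p = 0.0147), with an adjusted p of 0.0739 without Sirpa-negative replicate 2, 0.076 without Sirpa-negative replicate 8 and 0.0968 without Sirpa-positive replicate 6. The Ccr4 ligands made by mature thymic cells did not pass: Ccl17 measured 7.72 and 8.10 in Sirpa-positive and 6.54 and 6.58 in Sirpa-negative cells (1.35 ± 0.38, adjusted p = 0.102) and Ccl22 differed by 0.22 ± 0.68 (adjusted p = 0.94).

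Of 21 chemokine and migratory lipid receptors, 7 were higher and 3 lower. Cx3cr1 and Ccr2 led the higher ones and Xcr1 the lower ones. S1pr3, a receptor for sphingosine phosphate, measured 1.51 and 1.42 in Sirpa-positive and -1.32 and -1.28 in Sirpa-negative cells and was 6.8-fold higher (adjusted p = 0.00185). Cxcr3, the Cxcl9 receptor, was at least 7.94-fold lower (-4.35 and -5.44 in Sirpa-positive and -0.74 and -0.92 in Sirpa-negative cells, adjusted p = 0.000948). In total 6 of the 21 passed without Sirpa-positive replicate 1.

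Cytokine genes were higher for 6 of 25 and lower for 1. Il1rn, the interleukin receptor antagonist, measured 3.30 and 2.82 in Sirpa-positive cells and -1.18 and -1.89 in Sirpa-negative cells and was 24.2-fold higher (adjusted p = 0.000472). Il1b measured 2.96 and 2.51 in Sirpa-positive and 0.48 and -0.28 in Sirpa-negative cells and was 6.2-fold higher (adjusted p = 0.00321). Hgf, the hepatocyte growth factor, was at least 5.81-fold higher and not well above background on either Sirpa-negative array (adjusted p = 0.00207). The agonist Il1b and its antagonist were both higher. In total 4 of the 25 passed without Sirpa-positive replicate 6 and 4 without Sirpa-negative replicate 8. Among 40 cytokine receptors 7 were higher, including the decoy receptor Il1r2, which measured 2.59 and 2.83 in Sirpa-positive and 0.93 and 1.17 in Sirpa-negative cells and was 3.16-fold higher (adjusted p = 0.00559). That count was 3 without Sirpa-positive replicate 1, 2 without Sirpa-negative replicate 2, 2 without Sirpa-negative replicate 8 and 1 without Sirpa-positive replicate 6. Flt3 was the lower one: it measured 3.0 and 2.82 in Sirpa-positive and 4.30 and 4.12 in Sirpa-negative cells and differed by -1.30 ± 0.20 (adjusted p = 0.0109), with an adjusted p of 0.0567 without Sirpa-negative replicate 2 and 0.0685 without Sirpa-positive replicate 6.

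In the TNF superfamily, 6 of 27 genes were higher and none (0) lower. Tnfsf12 (Tweak) measured 3.87 and 4.09 in Sirpa-positive and 0.63 and 0.72 in Sirpa-negative cells and was 9.87-fold higher (adjusted p = 0.000529). Tnfsf8, the ligand of CD30, measured 0.59 and 0.89 in Sirpa-positive and -2.63 and -2.37 in Sirpa-negative cells, 9.41-fold higher (adjusted p = 0.000719). The neurotrophin receptor Ngfr measured 0.89 and 1.34 in Sirpa-positive and -1.71 and -1.79 in Sirpa-negative cells, 7.27-fold higher (adjusted p = 0.000734). The groups did not overlap for these 3, as for all 1322 called genes and 40.8% of all genes tested.

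Genes by which dendritic cells act on regulatory T cells were higher for 3 of 27 and lower for 2. This is 18.5% of the list, against 5.47% of all genes tested. Aldh1a2, which makes retinoic acid, was at least 19.8-fold higher (0.64 and 0.19 in Sirpa-positive cells, -3.78 and -4.01 in Sirpa-negative cells, adjusted p = 0.000119). Hmox1, the haem-degrading enzyme, measured 2.43 and 2.17 in Sirpa-positive and -1.46 and -1.16 in Sirpa-negative cells, 12.2-fold higher (adjusted p = 0.00018). A second Hmox1 probe, tested singly in limma, differed by only 1.39 (adjusted p = 0.0184). The semaphorin receptor Nrp1 measured -0.79 and -1.07 in Sirpa-positive and -3.17 and -3.66 in Sirpa-negative cells, 5.61-fold higher (adjusted p = 0.00142). Nrp1 was above background on 1 of the 2 Sirpa-negative arrays. The lower members were Cd86, described above, and Il27, which differed by -1.25 ± 0.23 (adjusted p = 0.0227), with an adjusted p of 0.0587 without Sirpa-positive replicate 1, 0.0935 without Sirpa-negative replicate 2, 0.0979 without Sirpa-negative replicate 8, 0.122 without Sirpa-positive replicate 6 and 0.0535 with the slide row as a block. The total of 5 was 3 without Sirpa-positive replicate 1, 3 without Sirpa-positive replicate 6, 3 without Sirpa-negative replicate 8 and 3 with the slide row as a block.

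The wider retinoic acid and TGF-beta list had 5 of 29 genes higher and 3 lower. Dhrs3, which reduces retinal and so limits retinoic acid, measured 1.98 and 2.18 in Sirpa-positive cells and -0.08 and -0.05 in Sirpa-negative cells and was 4.42-fold higher (adjusted p = 0.00105). Ltbp1, which binds latent TGF-beta, measured -2.77 and -3.01 in Sirpa-positive and 0.87 and 0.67 in Sirpa-negative cells and was 12.7-fold lower (adjusted p = 0.00279). In total 5 passed without Sirpa-positive replicate 1, 4 without Sirpa-positive replicate 6, 5 without Sirpa-negative replicate 2 and 5 without Sirpa-negative replicate 8. Of 21 Notch pathway genes, 3 were lower and none (0) higher, and the lower ones were 2 without Sirpa-positive replicate 1, 1 without Sirpa-negative replicate 2, 1 without Sirpa-negative replicate 8 and 2 without Sirpa-positive replicate 6. Notch4 led them, and the other two were the ligands Jag1 (-1.71, adjusted p = 0.0483) and Jag2 (-2.99, adjusted p = 0.00854). Jag1 had an adjusted p of 0.134 without Sirpa-positive replicate 1, 0.197 without Sirpa-negative replicate 2, 0.0603 without Sirpa-negative replicate 8, 0.201 without Sirpa-positive replicate 6 and 0.084 with the slide row as a block. Jag2 was above background on neither Sirpa-positive array, with an adjusted p of 0.0529 without Sirpa-negative replicate 2 and 0.0535 without Sirpa-negative replicate 8.

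Genes of antigen presentation by MHC molecules were read against the 5.47% called among all genes. None (0) of 25 MHC class I genes passed in limma, with a median of -0.18, and of 18 MHC class II genes 1 was higher and 1 lower (11.1%), with 1 passing with any 1 mature array left out or with the slide row as a block. Cd74, the invariant chain, measured 8.72 and 9.08 in Sirpa-positive cells and 8.95 and 8.75 in Sirpa-negative cells (0.05 ± 0.21, adjusted p = 0.953). H2-Aa measured 8.18 and 8.81 in Sirpa-positive and 8.56 and 8.32 in Sirpa-negative cells (0.06 ± 0.28, adjusted p = 0.962). The groups overlapped for both genes. The higher gene was Ctsl, a protease of the thymic cortex that cuts the invariant chain, at 0.77 and 0.35 in Sirpa-positive and -2.35 and -2.57 in Sirpa-negative cells, 8.11-fold higher (adjusted p = 0.00113). H2-Ob, the lower gene, differed by -1.10 ± 0.24 (adjusted p = 0.0439), with an adjusted p of 0.162 without Sirpa-positive replicate 1, 0.105 without Sirpa-negative replicate 2, 0.178 without Sirpa-negative replicate 8, 0.0677 without Sirpa-positive replicate 6 and 0.0683 with the slide row as a block.

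Lysosomal proteases and their inhibitors were higher for 10 of 25 genes and lower for 1. Ctsd, an aspartic protease, measured 5.19 and 5.06 in Sirpa-positive cells and 0.95 and 0.92 in Sirpa-negative cells and was 18.2-fold higher (adjusted p = 0.000101). The protease inhibitor Cst7 measured 3.30 and 3.50 in Sirpa-positive and -1.83 and -2.22 in Sirpa-negative cells, 43-fold higher (adjusted p = 0.000192). Ctsa, whose probes disagreed in sign or call, was 14.7-fold higher on the brightest of them (adjusted p = 0.00101). The count was 6 without Sirpa-positive replicate 1, 6 without Sirpa-negative replicate 2, 7 without Sirpa-negative replicate 8 and 5 without Sirpa-positive replicate 6.

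Interferon-stimulated genes were higher for 7 of 33 and lower for none (0), with a median of 0.17. Ifit3, which binds foreign RNA together with other Ifit proteins, measured 5.28 and 5.59 in Sirpa-positive cells and 0.86 and 1.28 in Sirpa-negative cells and was 20.6-fold higher (adjusted p = 0.000169). Ifitm3, which blocks virus entry, measured 5.98 and 6.38 in Sirpa-positive and 3.44 and 3.52 in Sirpa-negative cells, 6.49-fold higher (adjusted p = 0.000976), and Rtp4 measured 5.02 and 4.77 in Sirpa-positive and 2.17 and 1.46 in Sirpa-negative cells, 8.47-fold higher (adjusted p = 0.0011). The count was 4 without Sirpa-positive replicate 1, 7 without Sirpa-negative replicate 2, 3 without Sirpa-negative replicate 8 and 4 without Sirpa-positive replicate 6. The 250 bases before the Ifit3 start (chr19:34583279-34583528, plus strand, RefSeq on GRCm38.p6) are shown because Ifit3 had the largest difference of this list. Capitals mark GAAANNGAAA, a pattern bound by interferon regulatory factors, searched on both strands and here read on the opposite one.
Ifit3: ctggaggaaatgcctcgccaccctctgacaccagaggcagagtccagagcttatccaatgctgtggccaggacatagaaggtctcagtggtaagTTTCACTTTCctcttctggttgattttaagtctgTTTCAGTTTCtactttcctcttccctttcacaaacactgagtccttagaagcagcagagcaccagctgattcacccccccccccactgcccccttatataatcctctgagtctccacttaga
The 2 matches lay 156 and 122 bases before the start and did not overlap. The pattern occurred in 2.98% of all 32851 windows, in 2 of 5 higher genes with a window and in 9 of 21 other tested genes with one. Among type 1 markers the AP-1-like pattern TGANTCA, found in 6.75% of all windows, occurred in 0 of 15 lower genes and in 0 of 6 others. For both patterns a gene was counted if any of its windows matched, unlike the shares of windows. Of 17 guanylate-binding and immunity-related GTPases, 2 were higher and 1 lower, 17.6% of the list against 5.47% of all genes tested. Gbp7 measured 1.23 and 1.40 in Sirpa-positive and -1.75 and -2.13 in Sirpa-negative cells and was 9.57-fold higher (adjusted p = 0.000734). That list's total was 2 without Sirpa-positive replicate 1, 2 without Sirpa-negative replicate 2, 2 without Sirpa-negative replicate 8 and 1 without Sirpa-positive replicate 6.

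Single genes of movement and adhesion passed in both directions. Of 40 actin and migration genes, 2 were higher and 1 lower, 7.5% of the list against 5.47% of all genes tested. The unconventional myosin Myo1e measured 5.13 and 5.24 in Sirpa-positive cells and 1.78 and 1.93 in Sirpa-negative cells and was 10-fold higher (adjusted p = 0.000217), and the tubulin Tubb2b measured 3.57 and 3.54 in Sirpa-positive and 5.85 and 5.33 in Sirpa-negative cells, 4.1-fold lower (adjusted p = 0.00277). Of 33 integrins and adhesion molecules, 3 were higher and 2 lower, 15.2% of the list, with Itga9 at least 19.2-fold higher (adjusted p = 0.000472). The adhesion total was 3 without Sirpa-positive replicate 1, 3 without Sirpa-negative replicate 2 and 2 without Sirpa-negative replicate 8. Of 30 axon guidance genes, 6 were higher and 1 lower. Semaphorins stood on both sides: Sema4d measured 3.74 and 3.40 in Sirpa-positive and 0.84 and 0.86 in Sirpa-negative cells, 6.58-fold higher (adjusted p = 0.00115), and Sema4f measured -2.01 and -1.67 in Sirpa-positive and 2.03 and 2.58 in Sirpa-negative cells, 17.6-fold lower (adjusted p = 0.00112). The higher axon guidance count was 2 without Sirpa-positive replicate 1, 5 without Sirpa-negative replicate 2, 4 without Sirpa-negative replicate 8 and 3 without Sirpa-positive replicate 6.

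The lipid genes that passed were higher in Sirpa-positive cells. Of 27 genes of cholesterol synthesis and efflux, 5 were higher and none (0) lower. Abca1, the cholesterol exporter, measured 2.69 and 2.10 in Sirpa-positive cells and -2.41 and -3.73 in Sirpa-negative cells and was 44.3-fold higher (adjusted p = 0.00142). Nr1h3, the oxysterol receptor LXR alpha that turns Abca1 on, measured 2.96 and 2.74 in Sirpa-positive and -1.01 and -1.05 in Sirpa-negative cells, 14.7-fold higher (adjusted p = 0.000493). Abca1 was above background on 1 of the 2 Sirpa-negative arrays. Apoe belongs to this group too. In the lipid mediator list 8 of 27 were higher and none (0) lower, led by Pla2g7. The prostacyclin receptor Ptgir was at least 6.54-fold higher (adjusted p = 0.00267) and the cyclooxygenase Ptgs1 at least 8.79-fold higher (adjusted p = 0.00504), both above background on neither Sirpa-negative array. The cholesterol count was 4 without Sirpa-positive replicate 1, 4 without Sirpa-negative replicate 2, 3 without Sirpa-negative replicate 8 and 3 without Sirpa-positive replicate 6, and the lipid mediator count was 4 without Sirpa-positive replicate 1, 4 without Sirpa-negative replicate 2, 4 without Sirpa-negative replicate 8 and 3 without Sirpa-positive replicate 6.

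None (0) of 30 respiratory chain subunits passed in limma, with a median of -0.02. Glycolysis had 4 of 25 genes higher, among them Pfkfb4, a regulator of the pathway, measured 0.49 and 0.23 in Sirpa-positive and -1.42 and -1.31 in Sirpa-negative cells and was 3.31-fold higher (adjusted p = 0.00312), and for the list 1 gene passed with any 1 mature array left out and 2 with the slide row as a block. Of 36 cell cycle genes 2 were lower, 5.56% of the list against 5.47% of all genes tested. Cdk1 measured 0.59 and 0.45 in Sirpa-positive and 2.60 and 2.20 in Sirpa-negative cells, 3.68-fold lower (adjusted p = 0.00538), on the brightest of 3 probes, of which 1 did not pass when probes were tested singly (-0.42, adjusted p = 0.448). Of 27 Bcl2 family and cell death genes 2 were lower, 7.41% of the list. Bcl2l14 measured 2.01 and 2.37 in Sirpa-positive and 4.55 and 4.26 in Sirpa-negative cells, 4.63-fold lower (adjusted p = 0.00404). The cell cycle and cell death totals were 1 without Sirpa-negative replicate 2, Sirpa-negative replicate 8 or Sirpa-positive replicate 6, and the cell death total was also 1 without Sirpa-positive replicate 1 and with the slide row as a block. Among 20 STAT and SOCS genes, the feedback inhibitor Socs3 alone passed, 5% of the list. It measured 3.09 and 3.42 in Sirpa-positive and 1.04 and 1.07 in Sirpa-negative cells, 4.59-fold higher (adjusted p = 0.00116). Aire, the factor that drives self-antigen expression in the medulla, measured -0.15 and 0.26 in Sirpa-positive and -0.09 and 0.89 in Sirpa-negative cells and did not pass (-0.35 ± 0.36, adjusted p = 0.761), and its second probe differed in sign.

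**Figure D4:**
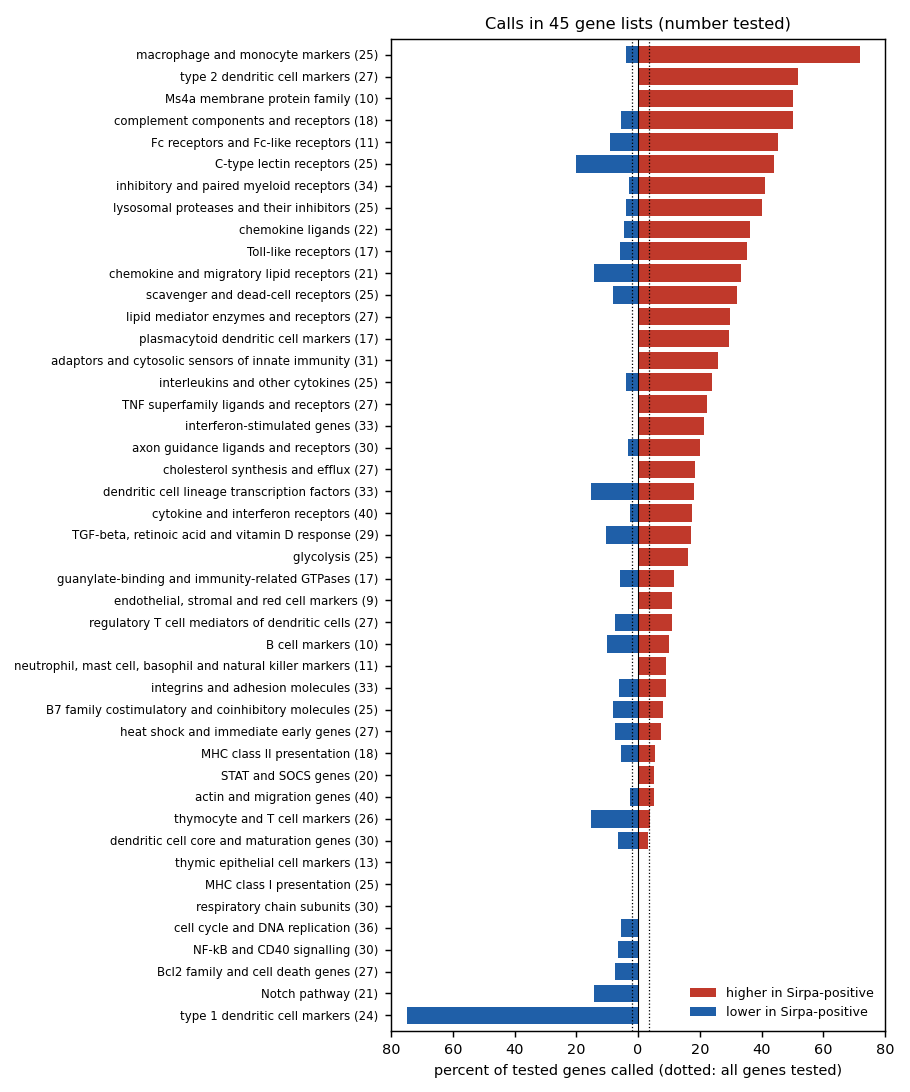
Percent of the tested genes of each of 45 gene lists (number tested in brackets) that were higher (red, right) or lower (blue, left) in mature Sirpa-positive cells, with dotted lines at 3.38% and 2.10% for all genes. The macrophage and monocyte list reaches furthest right, with 18 of 25, and the type 1 list furthest left, with 18 of 24. MHC class I presentation, respiratory chain and thymic epithelial lists have no bar.

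The immature arrays, which share no sample with the mature ones, gave the same comparison in the earlier state. Both comparisons came from 1 fit and used the same estimate of each gene's spread, so calls in both states are not independent. There 2806 genes passed, 11.6% of those tested (7.23% higher and 4.39% lower in Sirpa-positive cells), and 1055 genes passed in both states, which is 79.8% of the mature and 37.6% of the immature calls. The direction was the same for 1051 of them and opposite for 4. The mature difference was the smaller one for 757 of the 1051 and the larger one for 294, with a median ratio of 0.840. Across all genes, which are not independent replicates, the differences of the 2 states correlated at r = 0.731 (Spearman's rho = 0.476), and their SD was 0.787 in mature and 1.01 in immature cells. The immature count was 1665 without Sirpa-positive immature replicate 5 and 1232 without Sirpa-positive immature replicate 3.

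Whether a gene's subset difference itself changed between the states was tested with the interaction term, and no gene (0) passed in limma. The smallest adjusted p was 0.0688, and 1946 genes (8.06%) had an unadjusted p under 0.05. The count of 0 depended on the processing, with 181 genes after normexp and quantile normalization and 148 in the authors' value table. Irf4, for example, differed by 1.23 in mature and 4.58 in immature cells (interaction adjusted p = 0.0688), Irf8 by -1.16 and -2.85 (0.153), and Ccl17 by 1.35 and 4.50 (0.0963). Type 1 markers had a median of -1.70 in mature and -3.08 in immature cells, and type 2 markers 1.29 and 3.36.

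The 4 genes called in opposite directions were Igfbp4, Abtb2, Mocos and the unnamed transcript TC1755383. Igfbp4, a binding protein of insulin-like growth factors, measured -1.11 and -1.03 in mature Sirpa-positive cells and 0.91 and 0.39 in mature Sirpa-negative cells, a difference of -1.72 ± 0.25 (adjusted p = 0.00891). In immature cells it measured -2.63 and -2.46 in Sirpa-positive and -3.57 and -3.95 in Sirpa-negative samples, a difference of 1.21 ± 0.25 (adjusted p = 0.0217). The interaction did not pass (adjusted p = 0.0688). The 2 subsets did not overlap in either state, which in mature cells held for all 1322 called genes. Of the 1322 mature calls, 267 were not called in immature cells, 160 of them lower in Sirpa-positive cells, and for 105 of the 267 the immature difference was under 0.5.

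**Figure D5:**
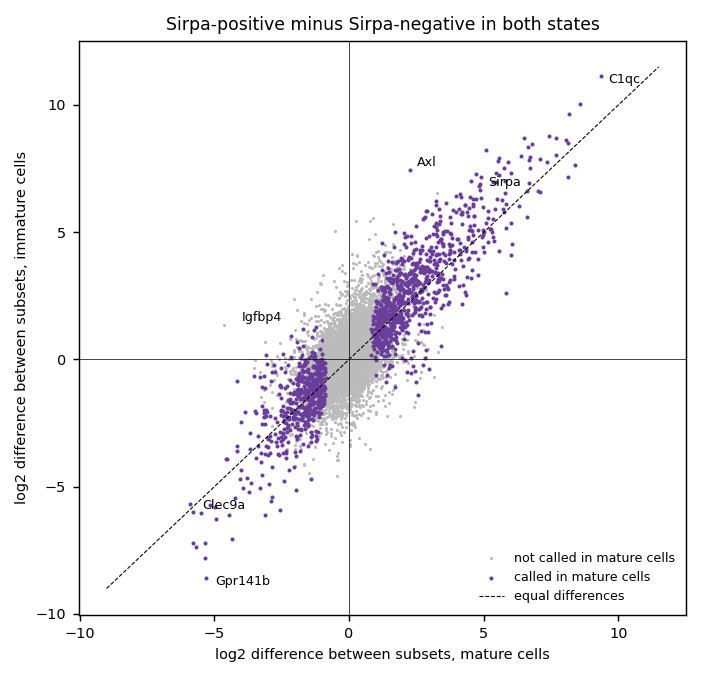
Log2 difference between Sirpa-positive and Sirpa-negative cells in the mature state (x axis) and in the immature state (y axis) for every gene tested, with genes called in mature cells in purple and the dashed line at equal differences. Most purple points lie in the upper right and lower left, where the sign is the same in both states, as for 1051 of the 1055 genes called in both.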

How the data were processed

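Cy3-labelled RNA of 8 samples was measured on 1-colour Agilent arrays. The deposited scanner files give the intensity of each spot, written by Feature Extraction 10.7.3.1 per the file headers; the submitters' processing notes name version 10.5. Its processed signal is background-subtracted and detrended. The authors' deposited value table appears to hold log2 values after quantile normalization (sorted columns differ by at most 0.126, medians 5.99 to 6.01), with ranks as in the median pixel signal. Scale is inferred from the range, and no centring was seen; it served as an alternative. The submitters' processing notes name limma, with settings not given in the sources used here.

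Control spots were left out, outlier spots (110 to 270 an array) were dropped, and repeated spots of the 55681 probes were averaged. Of the kept probes 62 lacked a value on at least 1 array. Each processed signal was divided by its array's 75th percentile and taken to log2. The 33689 probes that were well above background throughout at least 1 group were kept, and named through RefSeq accessions (GRCm38.p6; 26582 probes with a symbol, 29099 without). The brightest probe on average stood for a gene, which gave 24148 entries, 13867 with a symbol. Among 42 named genes with several kept probes, 10 had probes that differed in sign or call.

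Group means of all 8 arrays were fitted in limma 3.58.1 (R 4.3.3; 4 residual degrees of freedom, 3.26 prior), two-sided, with Benjamini-Hochberg adjustment over all genes and a threshold of 0.05. Differences are Sirpa-positive minus Sirpa-negative, with their SE. Where a gene was above background on neither array of the dimmer group, "at least N-fold" compares the brighter mean with a floor, which on each dimmer array is the gene's own signal or, if higher, the lowest signal well above background, averaged over both arrays.

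Named were the 12 largest differences in each direction among called, non-overlapping genes with a full symbol and well above background in the higher group, up to 3 called genes per list and direction with the smallest p, the defining markers of other cells, and 18 dendritic cell genes. No gene met the rule for the interaction. The members and the 45 lists (1114 distinct genes, 1086 on the array, 27 not matched) were chosen with earlier results of these data known, and no list test was run.

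On simulated data for the mature comparison (24104 genes), 0%, 4%, 52% and 82% of 50 genes each changed by 0.5, 1, 2 and 3 on the log2 scale were recovered, with 6 false calls. Fewer genes were changed there than were called in the data. The adjusted p depends on that number, so these rates may not hold for the data. Alternatives were normexp (offset 50, on the median signal, as the files have no mean signal) with quantile normalization, quantile normalization alone, median scaling, the value table, other filters and probe rules, the mature arrays alone, the slide row as a block, trended and robust variances, and each array left out.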

Additional observations from a re-analysis of the deposited data

How the results depend on the processing

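Against 1322 genes called in mature cells, the count was 579 with no filter on dim probes, and 636 to 886 when 1 mature array was left out. Against 2806 in immature cells, it was 1557 with no filter and 1232 to 2771 with 1 array left out. The share of mature calls higher in Sirpa-positive cells was 61.6%, 72.4% with no filter and 64.8% to 70.3% with 1 mature array left out. The interaction, with 0 calls, gave 181 after normexp and quantile normalization, 1 with median scaling, 148 in the authors' value table, 101 among probes above background on all 8 arrays, 26 among probes above background in a mature group, 4 with the mean of a gene's probes, 186 with trended and robust variances, and 0 to 1 with 1 array left out. The cause of these shifts was not tested, except that leaving out an array leaves 1 in its group, which is then assumed to vary like the others. With only the 4 mature arrays in the model, 887 genes passed.

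The replicate numbers of the titles (1 and 6, 2 and 8, 3 and 5, 4 and 7) are not shared between groups, so they pair no samples. Each slide row held 1 array of every group, and with the row as a block 1008 mature genes passed. With only the mature arrays in the model, adjusted p was 0.132 for Irf8, 0.0891 for Irf4, 0.118 for Cd86, 0.13 for H2-Ob, 0.0608 for Jag1, 0.0565 for Tlr7, 0.066 for Il27 and 0.058 for Flt3. With no filter on dim probes it was 0.151 for Irf8, 0.131 for Irf4, 0.126 for Cd86, 0.164 for H2-Ob, 0.165 for Jag1, 0.121 for Tlr7, 0.101 for Il27, 0.0599 for Flt3, 0.0666 for Cd8a, 0.0683 for Cxcl9, 0.0573 for Hc, 0.0594 for Cd79b, 0.108 for Prg2, 0.0956 for Egr2 and 0.0568 for Egr3. With median scaling it was 0.0655 for Irf8, 0.056 for Cd86 and 0.0629 for H2-Ob, and Jag2 had 0.181 after normexp and quantile normalization and 0.0794 in the authors' value table. Of 173 named genes, 143 were called, and 93 of these passed in each of the 15 alternatives that tested them. Their results stood on the same side of the threshold in 2256 cases, lost the call in 267, gained one in 12 and reversed in none (0). The median difference of all genes lay between -0.07 and 0.00 over the scalings. The number of arrays limits the precision.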

Other observations

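Some further lists and single genes differed between the mature subsets. Of 9 endothelial, stromal and red cell markers, 1 was higher in Sirpa-positive cells: Pf4, the platelet chemokine, which measured 0.69 and 0.21 in Sirpa-positive cells and -4.91 and -5.74 in Sirpa-negative cells, where it was above background on neither array, and was at least 27.2-fold higher (adjusted p = 0.00095). Pecam1, which defines endothelium, measured -0.46 and -1.14 in Sirpa-positive and -1.44 and -2.11 in Sirpa-negative cells and did not pass (0.97 ± 0.38, adjusted p = 0.245). In the endothelial, stromal and red cell list 11.1% were called, against 5.47% of all genes tested. Of 10 B cell markers, 1 was higher and 1 lower, 20% of the list. The higher one, Cd79b, measured 2.83 and 2.81 in Sirpa-positive and 0.94 and 0.66 in Sirpa-negative cells and differed by 2.02 ± 0.32 (adjusted p = 0.0122), with an adjusted p of 0.0625 without Sirpa-positive replicate 1, 0.0801 without Sirpa-negative replicate 8 and 0.072 without Sirpa-positive replicate 6. The lower one was Fcrla.

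Of 11 markers of neutrophils, mast cells, basophils and natural killer cells, 1 was higher: Prg2, a granule protein of eosinophils, measured 0.44 and 1.39 in Sirpa-positive cells and -1.70 and -1.78 in Sirpa-negative cells and differed by 2.66 ± 0.51 (adjusted p = 0.0284), with an adjusted p of 0.113 without Sirpa-negative replicate 2, 0.132 without Sirpa-negative replicate 8 and 0.153 without Sirpa-positive replicate 6. Of 27 heat shock and immediate early genes, 2 were higher and 2 lower, with 1 or none passing with any 1 mature array left out and 2 with the slide row as a block. The share called was 14.8% in the heat shock and immediate early list and 9.09% in the list with Prg2, against 5.47% of all genes tested. The related factors Egr2 and Egr3 ran in opposite directions. Egr2 differed by 1.53 ± 0.28 (adjusted p = 0.0222), with an adjusted p of 0.0579 without Sirpa-positive replicate 1, 0.11 without Sirpa-negative replicate 2, 0.0722 without Sirpa-negative replicate 8 and 0.124 without Sirpa-positive replicate 6. Egr3 differed by -1.56 ± 0.24 (adjusted p = 0.0108), with an adjusted p of 0.0592 without Sirpa-positive replicate 1, 0.0665 without Sirpa-negative replicate 8 and 0.0543 without Sirpa-positive replicate 6.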
